A study of Drosophila melanogaster with 3 samples.

Results

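The genes described here are 40 cell cycle and DNA replication genes of Drosophila melanogaster, set against all 13945 protein-coding genes on chromosomes with peaks. They were taken by symbol from the Ensembl annotation of the dm6 genome build, and all 40 were found in it. The data are chromatin immunoprecipitation sequencing (ChIP-seq) peaks of CG12104, for which the study used whole embryos of mixed sex, aged 0 to 24 h; RefSeq lists CG12104 as an uncharacterized protein. The fly line, CG12104-GFP, carries an insertion that makes CG12104 with GFP at its C-terminus, and an antibody against GFP was used for the precipitation. The series is 1 group of 3 biological replicates of this line, with no second genotype or treatment. Whole embryos of this age span mix many cell types and stages, so a peak cannot be placed in a dividing or a resting cell.

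Cells copy their DNA in S phase from origins that are prepared earlier. The origin recognition complex, with Cdc6 and Dup, loads the MCM helicase, and the kinases Cdc7 and Cdk2 then start it. E2F factors drive the genes that S phase needs, Rbf restrains them, and Cdk1 with its mitotic cyclins later takes the cell into mitosis. In fly embryos the earliest divisions run on maternal products, after which cycles lengthen and depend on transcription by the embryo.

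A promoter peak is here a peak whose summit lay within 500 bp of a transcription start site (TSS) of the gene. A distal peak lay farther from every TSS of the gene, and either inside the gene or with that gene's TSS as the nearest within 5 kb. Only protein-coding genes were considered, here and wherever another gene or its TSS is mentioned below. The set used for calls is the authors' reproducible set, chosen by the irreproducible discovery rate (IDR). It holds 4060 peaks, and these are the 4060 regions of highest signal in the list made from the pooled replicates, which holds 26959. Each replicate's own list holds 30000 regions, and its "top regions" are here its 4060 highest by signal. Signal is on the scale of its own list, so replicates are compared by rank. The lists carry no read counts, so depth is unknown. No replicate was set aside, but replicate 3 gave lower ranks at the members' promoters, as its values below show.

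The sequences at the summits that the results turn on are given first, because they show how rich in A and T most of these sites are. They are the 4 highest promoter peaks of members, those on the right arm of chromosome 2 left out (CycE, Cdc7, Mcm2 and Cdk1), the weaker Mcm2 peak, the E2f1 promoter peak, and both peaks of chif. Each is the plus strand of dm6 for 100 bp to each side of the summit, shortened at Cdc7 and at the weaker Mcm2 peak so that no more than 30 bases of annotated exon are shown. Capitals mark matches to any of the words searched, which are named below.
CycE promoter (chr2L:15747007-15747207): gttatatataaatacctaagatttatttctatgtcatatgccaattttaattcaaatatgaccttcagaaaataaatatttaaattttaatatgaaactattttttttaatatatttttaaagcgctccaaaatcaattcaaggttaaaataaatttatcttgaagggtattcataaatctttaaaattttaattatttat
Cdc7 promoter (chrX:6654444-6654570): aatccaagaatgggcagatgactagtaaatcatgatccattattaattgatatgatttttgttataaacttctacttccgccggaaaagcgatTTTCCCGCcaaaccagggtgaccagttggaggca
Mcm2 promoter, higher peak (chr3R:8264604-8264804): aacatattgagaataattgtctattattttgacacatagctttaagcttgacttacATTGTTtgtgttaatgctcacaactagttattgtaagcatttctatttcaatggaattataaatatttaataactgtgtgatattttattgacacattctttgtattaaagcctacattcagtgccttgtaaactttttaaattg
Mcm2 promoter, lower peak (chr3R:8264804-8264999): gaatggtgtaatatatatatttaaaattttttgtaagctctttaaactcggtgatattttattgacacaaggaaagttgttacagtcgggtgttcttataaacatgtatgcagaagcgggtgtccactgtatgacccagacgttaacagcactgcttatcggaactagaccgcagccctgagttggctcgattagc
Cdk1 promoter (chr2L:10386393-10386593): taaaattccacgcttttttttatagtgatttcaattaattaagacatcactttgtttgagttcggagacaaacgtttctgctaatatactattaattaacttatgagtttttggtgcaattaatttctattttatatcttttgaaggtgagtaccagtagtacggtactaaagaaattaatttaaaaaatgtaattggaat
E2f1 promoter (chr3R:21633333-21633533): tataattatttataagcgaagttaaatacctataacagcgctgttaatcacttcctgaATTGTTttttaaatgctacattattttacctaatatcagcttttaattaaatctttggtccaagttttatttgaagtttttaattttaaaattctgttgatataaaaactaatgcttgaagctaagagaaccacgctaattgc
chif promoter (chr2L:16352634-16352834): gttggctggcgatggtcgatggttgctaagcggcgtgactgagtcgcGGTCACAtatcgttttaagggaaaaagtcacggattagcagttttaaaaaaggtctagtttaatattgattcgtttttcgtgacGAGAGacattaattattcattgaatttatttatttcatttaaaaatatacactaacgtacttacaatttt
chif intron (chr2L:16351154-16351354): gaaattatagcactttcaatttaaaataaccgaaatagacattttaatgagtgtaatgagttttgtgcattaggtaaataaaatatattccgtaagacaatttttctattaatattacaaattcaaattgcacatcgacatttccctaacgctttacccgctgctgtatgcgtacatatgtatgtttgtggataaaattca

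Promoter peaks were found at 13 of the 40 genes (32.5%, 95% Wilson interval 20.1 to 48.0%), against 18.7% of all protein-coding genes. The 13 genes were dup, Mcm2, dpa, Mcm5, Cdc7, chif, CycE, RnrS, E2f1, E2f2, Dp, Cdk1 and aurA. Distal peaks were found at 6 members (15.0%, interval 7.06 to 29.1%), against 9.21% of all genes, and these were Cdc7, chif, CycE, E2f1, Cdk4 and CycB. Either kind was present at 15 members (37.5%, interval 24.2 to 53%), against 25.0% of all genes. The interval for distal peaks spans the share of all genes, that for either kind begins just below it, and that for promoters begins above it. All intervals given here cover counting error only. The members were chosen with earlier results known, so an interval that clears the share is not a test.

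Promoter shares in single replicates were close to those of the IDR set. Among the top regions, promoter peaks reached 14 members (35.0%) in replicate 1, 13 (32.5%) in replicate 2 and 11 (27.5%) in replicate 3. The shares of all genes were 20.2%, 17.0% and 16.9% in the same replicates. The members' intervals began at 22.1%, 20.1% and 16.1%, so that of replicate 3 spans the share of all genes. The mean over replicates was 31.7% ± 3.82 for members and 18.0% ± 1.85 for all genes (SD, n = 3 each), and the members' share was the higher in 3 of 3 replicates. A promoter region among the top regions of all 3 replicates was found at 7 members (17.5%, interval 8.75 to 31.9%), against 12.8% of all genes, a share that the interval spans. Those 7 were Mcm2, dpa, Cdc7, chif, RnrS, Dp and Cdk1.

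**Figure D1:**
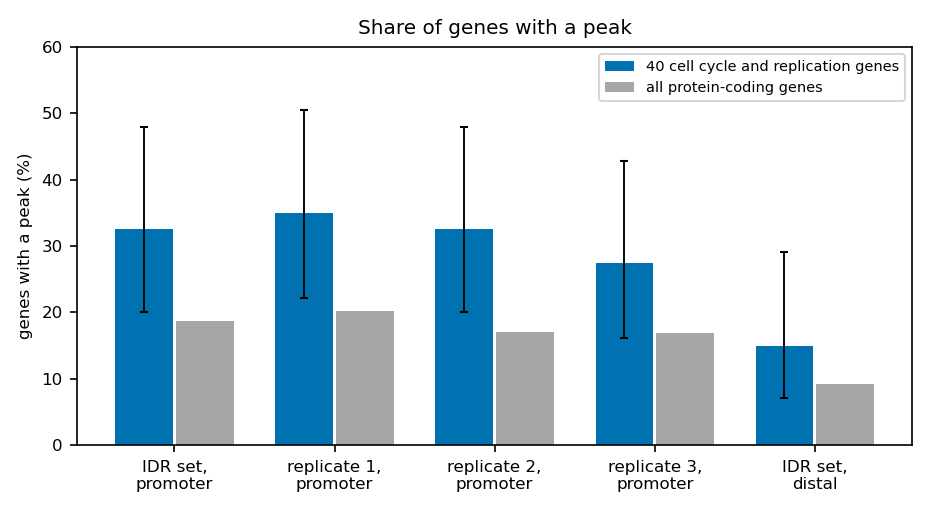
Percent of genes with a peak (y axis) for the 40 cell cycle and replication genes (blue, with 95% Wilson intervals) and all 13945 protein-coding genes (grey), in the IDR set and among the 4060 highest regions of each replicate. The members' bar stands above the bar of all genes in each of the 5 pairs, at 27.5 to 35.0% against 16.9 to 20.2% for promoters.

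Among the 13 genes of origin licensing, 4 had a promoter peak and 0 had a distal peak. Dup, the fly Cdt1, which brings the MCM helicase to origins, had a peak of pooled signal 168 (rank 1997) at 335 bp upstream of its TSS (chr2R:15381098-15381547). That peak had signals of 72.6, 76.1 and 16.9 in replicates 1, 2 and 3 (ranks 1821, 1730 and 5757). Replicates 1 and 2 thus placed it among their top regions and replicate 3 did not. Its summit lay nearer to the TSS of SRPK, a kinase of splicing factors, which is 126 bp away on the opposite strand.

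Of the MCM helicase subunits, Mcm2, dpa (the fly Mcm4) and Mcm5 had a promoter peak, and Mcm3, Mcm6 and Mcm7 had none in the IDR set. Mcm2 had a pair of them, in the space it shares with RPA1, the large subunit of the single-stranded DNA binding protein RPA. The higher one had a pooled signal of 218 (rank 1276, 266 bp upstream of the Mcm2 TSS) and the lower one 132 (rank 2931, 66 bp upstream). In each replicate both overlapped the same region, which ranked 966, 1396 and 2563 in replicates 1, 2 and 3. The replicate ranks therefore do not tell the pair apart.

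Both Mcm2 windows printed above hold the same run of 19 bases, 98 bases apart and on the same strand.
Run shared by the Mcm2 peaks (chr3R:8264737-8264755 and chr3R:8264854-8264872): gtgatattttattgacaca
No other of the 350 pairs of members' peak windows compared shared a run of more than 13 bases. The run was present in 2 IDR windows in all, those of Mcm2. Of 288 pairs of neighbouring IDR peaks with summits 200 to 500 bp apart, 2 (0.694%) shared a run at least as long, the Mcm2 pair among them. The run was noticed on reading the sequences and is given as a description.

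Dpa had a peak of pooled signal 131 (rank 2980) in its 5′ UTR, 66 bp past the TSS (chr2R:7499854-7500303). Its replicate ranks were 3108, 3181 and 1827, all among the top regions. Mcm5 had a peak of pooled signal 135 (rank 2830) at 77 bp upstream (chr3R:10788222-10788671), with ranks of 1320, 4733 and 6504. The Mcm5 peak was thus among the top regions of replicate 1 alone. Both genes face a neighbour on the opposite strand, didum (a class V myosin) for dpa and Art1 (an arginine methyltransferase) for Mcm5.

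None of the origin recognition complex genes had an IDR peak. Orc1 came nearest, with a pooled region of signal 92.3 (rank 4963, q = 0.0402) and ranks of 4886, 6702 and 6422 in the replicates. Orc5 had a region of rank 3593 in replicate 1, rank 18003 in replicate 2 and none in replicate 3, and its pooled region ranked 9290. Orc2 ranked 25357 in the pooled list and 27227 in replicate 1, Orc4 appeared in replicate 3 alone (rank 17921), and Orc6 had no promoter region in any list. Cdc6, the loading ATPase, had a pooled region of rank 9105, and of the remaining helicase subunits Mcm6 had one of rank 12896. Mcm3 and Mcm7 had promoter regions in replicate lists alone, none of them ranking above 14513.

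Among the kinases that fire origins, 3 of 4 genes had a promoter peak and the same 3 had a distal peak. Cdc7, the catalytic subunit of the kinase that phosphorylates the MCM helicase, had a promoter peak of pooled signal 251 (rank 968) at 3 bp past its TSS (chrX:6654319-6654768). Its ranks in replicates 1, 2 and 3 were 1421, 708 and 1055. A stronger peak, of signal 328 (rank 584), lay in its intron 1617 bp past the TSS (chrX:6656071-6656520), with ranks of 555, 705 and 596. Every replicate placed both Cdc7 peaks among its top regions, and the intronic one ranked higher in each.

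Chif, the partner that activates Cdc7, showed the same arrangement with a wider gap. Its promoter peak had a pooled signal of 147 (rank 2501) and lay 106 bp upstream of its TSS (chr2L:16352509-16352958). Hyls1 is annotated with the same TSS and strand as chif, and CG4455 starts 200 bp from the summit on the opposite strand. The region overlapping it ranked 1384, 3971 and 3491 in replicates 1, 2 and 3. Its intronic peak (chr2L:16351088-16351396) had a signal of 941 (rank 36), the highest of any member. The replicates gave that peak signals of 346, 418 and 176 and ranks of 32, 32 and 55. It lay inside the gene, 971 bp upstream of the nearer, internal chif TSS, with no TSS of another gene within 500 bp. The intron also falls within the annotated bounds of Hyls1, so the site cannot be given to either gene.

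CycE, the cyclin that activates Cdk2 for entry into S phase, had the highest promoter peak of the members, of pooled signal 504 (rank 232; chr2L:15746882-15747331). Its replicate signals were 192, 225 and 90.2 (ranks 199, 217 and 321). The summit lay in a CycE intron 497 bp upstream of an internal TSS, just inside the 500 bp limit. In replicate 1 the same region had its summit 514 bp upstream, just outside, and the strongest region of that replicate within the limit ranked 7667. A second CycE peak, of signal 252 (rank 963), lay 702 bp upstream (chr2L:15747087-15747536) and overlapped the same region in every replicate. Cdk2 itself, the kinase subunit, had no promoter region in any list.

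**Figure D2:**
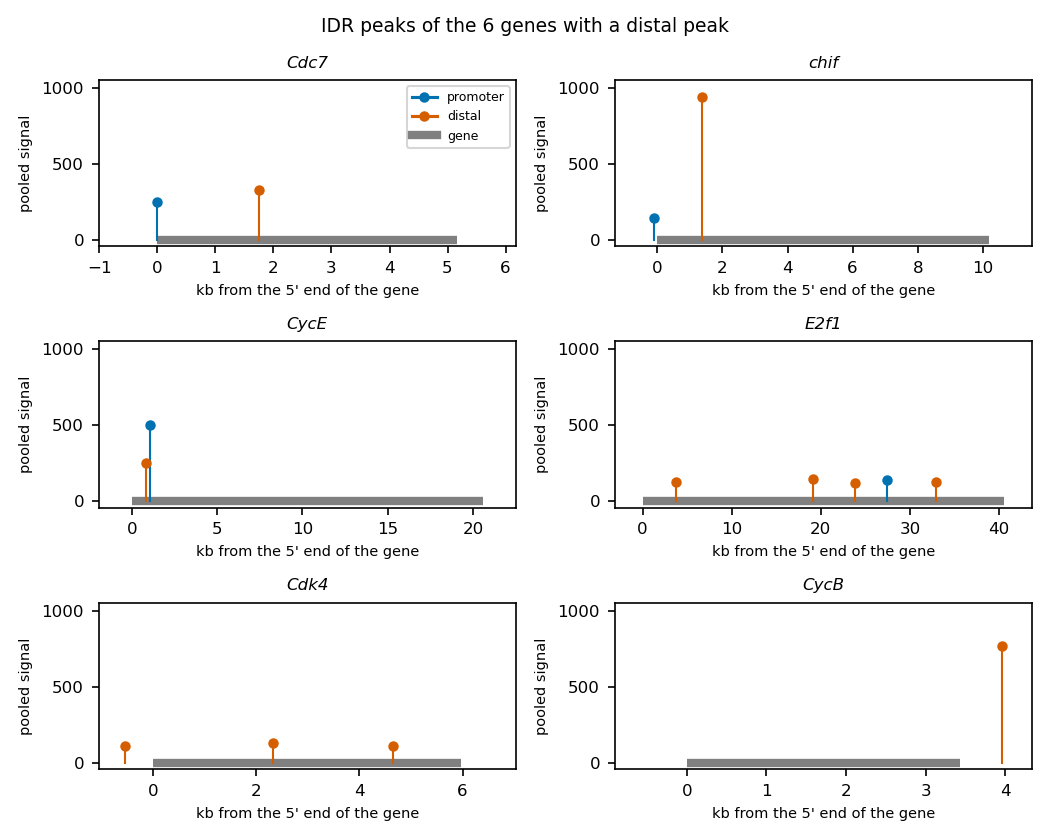
IDR peaks of the 6 members with a distal peak, by distance from the 5′ end of the gene in kb (x axis) and pooled signal (y axis); blue marks promoter peaks, orange distal peaks and the grey bar the gene. The chif intron (941) and the site beyond CycB (770) stand highest, and E2f1 holds 5 peaks of 120 to 150.

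In DNA synthesis, 1 of 5 genes had a promoter peak. RnrS, the small subunit of ribonucleotide reductase, which makes deoxynucleotides, had a peak of pooled signal 327 (rank 589) at 159 bp upstream (chr2R:11985327-11985776). Its signals were 114, 146 and 52.2 in replicates 1, 2 and 3 (ranks 709, 532 and 916), so every replicate placed it among its top 1000. RnrL, the large subunit of the same enzyme, appeared in replicate 3 alone, at rank 19141. PCNA, the sliding clamp of the replication fork, had regions of rank 16379, 4864 and 17350 and a pooled region of rank 8714 (q = 0.310). PolA2 ranked 14623 in the pooled list, and PolA1, the catalytic subunit of the same polymerase, appeared in replicate 3 alone (rank 25151).

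Genes of G1-S control had promoter peaks at 3 of 7, all 3 of them the E2F transcription factor genes. Dp, the partner of both E2F proteins, had the stronger peaks. The higher had a pooled signal of 310 (rank 651) in an intron 437 bp past an internal TSS (chr2R:13223803-13224252). Its replicate ranks were 808, 642 and 1028. The lower had a signal of 156 (rank 2267) in an intron 278 bp upstream of the same internal TSS (chr2R:13223088-13223537). It ranked 4635, 1623 and 914 in the replicates. These sites had no TSS of another gene within 500 bp, and replicate 1 left the lower one out of its top regions.

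E2f1, the activating E2F, had a promoter peak of pooled signal 141 (rank 2658) at 360 bp upstream of an internal TSS (chr3R:21633208-21633657), with ranks of 1939, 5890 and 3269. In addition, 4 distal peaks lay in its introns. Their pooled signals were 150 at 3303 bp upstream of the nearest E2f1 TSS, 131 at 4709 bp past it, 125 at 3316 bp past it and 120 at 1422 bp past it. Each was in the top regions of replicate 2 (ranks 1808, 2417, 2695 and 3669), those at 3316 and 1422 bp were also in the top of replicate 1 (3459 and 3478), and those at 3303 and 4709 bp in the top of replicate 3 (1954 and 2196). None of these 4 reached the top regions of all 3 replicates. With 5 IDR summits inside it, E2f1 (40.6 kb) was in the upper part of its size class: of 356 protein-coding genes of 30 to 50 kb the median held 0, and 14 (3.93%, E2f1 included) held at least as many.

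E2f2, the repressing E2F, had the weakest IDR promoter peaks, of pooled signal 119 (rank 3408, 173 bp upstream of a TSS) and 109 (rank 3876, 145 bp past a TSS). Both overlapped the same region in each replicate, of rank 1747, 3633 and 7233. The TSS of Mpp6, which encodes an exosome cofactor, lies within 500 bp of both summits. Just under the lowest IDR signal of 106, fzr had a pooled promoter region of signal 101, so the call between these genes rests on a small step in signal.

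Cdk4, the kinase partner of cyclin D, had distal peaks alone: 132 (rank 2928) at 957 bp past a TSS, 110 (rank 3828) at 3282 bp past a TSS, both intronic, and 114 (rank 3620) at 548 bp upstream of the gene. The last lay just outside the 500 bp limit, and the replicate regions that overlap it ranked 2732, 9721 and 2691. CycD had a pooled promoter region of rank 21032 and Rbf, the retinoblastoma family repressor, of rank 23619. Dap, the inhibitor of Cdk2, came closer with rank 5254 (signal 88.9, q = 0.0549) and replicate ranks of 9165, 4777 and 4647.

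For mitotic entry, 2 of 8 genes had a promoter peak, and CycB a distal one. Cdk1, the kinase that starts mitosis, had a peak of pooled signal 201 (rank 1472) at 231 bp upstream (chr2L:10386268-10386717). Its signals were 70.5, 90.0 and 38.2 (ranks 1929, 1326 and 1666), among the top regions of every replicate. The summit lay nearer to mRpS7, a mitochondrial ribosomal protein gene whose TSS is 169 bp away on the opposite strand. AurA, the centrosome kinase, had a peak of pooled signal 161 (rank 2171) at 86 bp upstream (chr3R:11962813-11963262), with ranks of 1464, 2341 and 7499.

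The CycB site was the second highest of the members, with a pooled signal of 770 (rank 65; chr2R:22802854-22803108). CycB is a mitotic cyclin that binds Cdk1. The peak lay outside protein-coding genes, 527 bp beyond the 3′ end of CycB. It was 3309 bp past the nearest CycB TSS, which was the nearest TSS of any protein-coding gene. Its signals of 289, 326 and 155 gave ranks of 55, 69 and 73. At the CycB promoter itself the pooled region ranked 5928, with ranks of 2161 and 21975 in replicates 1 and 2 and no region in replicate 3.

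Of the remaining mitotic genes, aurB, the kinase of the chromosomal passenger complex, had a pooled promoter region of signal 90.1 (rank 5143, q = 0.0487). Its ranks in replicates 1, 2 and 3 were 9861, 3239 and 4684. CycA, polo and stg, the fly Cdc25 phosphatase that limits the timing of embryonic mitoses, had promoter regions in replicate lists alone, none of them ranking above 7920. CycB3 had none in any list. The activators of the anaphase promoting complex (APC/C) had 0 IDR peaks at 3 genes: fzr reached pooled rank 4357 (q = 0.0215) with replicate ranks of 5179, 3191 and 2419, fzy (the fly Cdc20) pooled rank 6324, and the meiotic cort had no promoter region in any list.

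**Figure D3:**
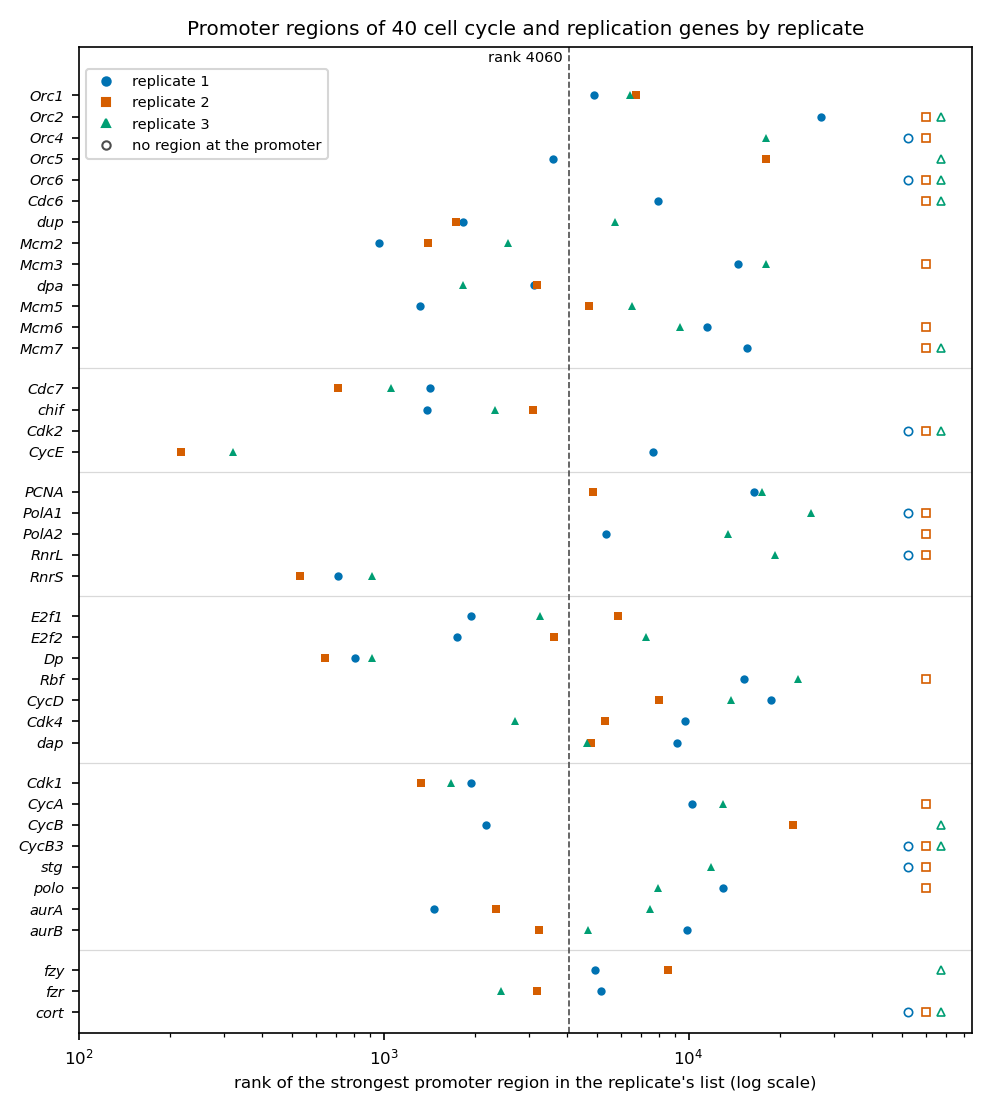
Rank of each member's strongest promoter region (own summit within 500 bp of a TSS) in the list of replicate 1 (circles), 2 (squares) and 3 (triangles), on a log scale, with genes grouped by role from origin licensing at the top to APC/C activators at the bottom. The dashed line marks rank 4060, and open symbols at the right mark replicates with no such region; 7 genes have all 3 symbols left of the line and 4 genes have 3 open symbols.

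Over all lists, the 40 genes thus divided into 4 with promoter and distal IDR peaks, 9 with promoter peaks alone and 2 with distal peaks alone. A further 13 had a promoter region in the pooled list below the IDR set, 8 in a replicate list alone, and 4 (Orc6, Cdk2, CycB3 and cort) in no list. Counting every region of the pooled list, 28 members (70%) had one at the promoter, against 46.2% of all genes. The 15 members that this count adds had pooled ranks between 4357 and 25357.

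The 16 promoter peaks of members were of middling height. Their median pooled signal was 159 (range 109 to 504), against 179 over all 2040 promoter IDR peaks, and their median pooled rank 2219, against 1805. In replicate ranks the medians were 1442, 1676 and 2563 for members' peaks, and 1507, 1687 and 1848 for all promoter peaks, in replicates 1, 2 and 3. Both Mcm2 peaks overlapped the same region in each replicate, as did both E2f2 peaks. Those regions were counted for each peak in the replicate values. The members' peaks were in the top regions of replicate 3 in 11 cases (68.8%), against 82.2% of all promoter peaks, and in the top of all 3 replicates in 9 cases (56.2%), against 69.9%. In replicate 3 the peaks of dup, Mcm5, E2f2 and aurA were outside the top regions, and in replicate 2 those of Mcm5 and E2f1.

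Summits of members' promoter peaks lay upstream of the nearest TSS of the member in 12 of 16 (75.0%), against 85.1% of all promoter peaks, taken from their own nearest TSS. The median position was -132 bp for members and -123 bp for all. The replicates' own summits were upstream in 87.5%, 75.0% and 87.5% of the 16, with the regions shared by the Mcm2 peaks and by the E2f2 peaks counted for each peak. Downstream positions belonged to dpa, Cdc7, Dp and E2f2.

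**Figure D4:**
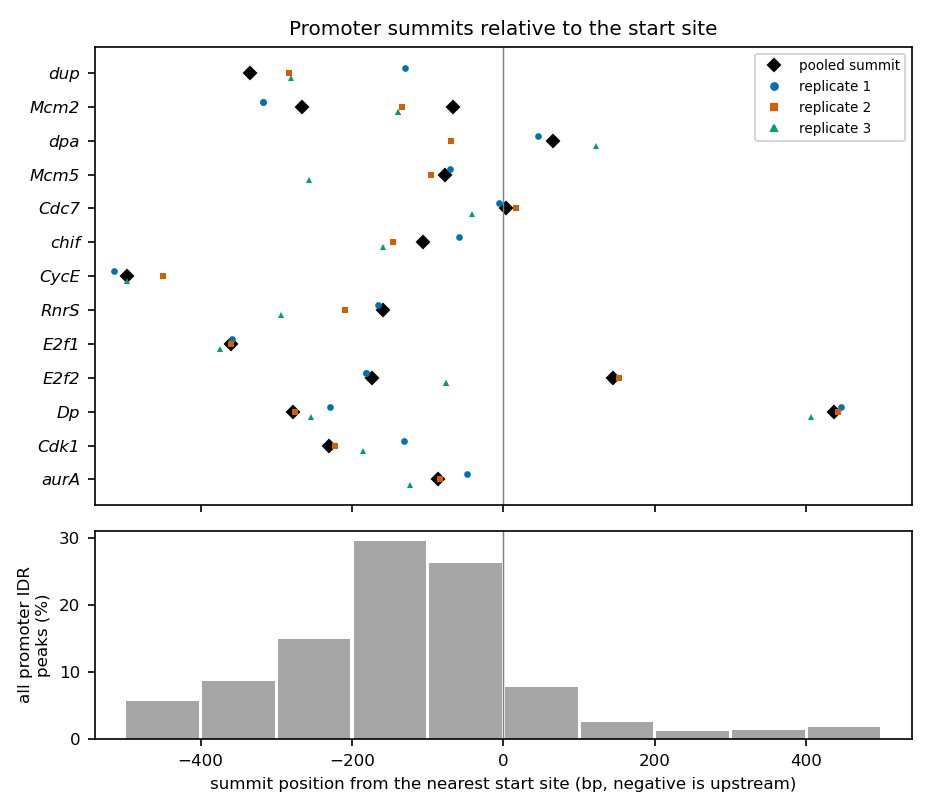
Top: summit positions of the members' promoter peaks in bp from the member's nearest start site (negative is upstream), with the pooled summit as a diamond and the 3 replicates' overlapping regions as a circle, square and triangle. Bottom: percent of all 2040 promoter IDR peaks per 100 bp; 12 of the 16 diamonds lie left of 0, and 29.6% of all promoter peaks lie 200 to 100 bp upstream.

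Most of these promoters were shared with another gene. Of the 13 bound members, 10 (76.9%) had the TSS of another protein-coding gene within 500 bp of the summit, against 63.3% of all bound genes, and at 4 of them (dup, Mcm2, E2f2 and Cdk1) a summit was nearer to the neighbour. Of the 16 peaks, 12 (75.0%) were within reach of more than 1 gene, against 43.3% of all promoter peaks. A peak near several genes has more ways to reach a member, so these shares by peak are not alike. The shares by gene above are the like comparison. A neighbour lay on the opposite strand in each of those pairs: SRPK with dup, RPA1 with Mcm2, didum with dpa, Art1 with Mcm5, CG3226 with Cdc7, CG4455 with chif, CG34231 with RnrS, Mpp6 with E2f2, mRpS7 with Cdk1 and CG3281 with aurA. Peak lists cannot assign such a peak to either gene.

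The members' share of bound promoters moved with this crowding. Where another gene's TSS lay within 1 kb, 11 of 22 members were bound (50%, interval 30.7 to 69.3%), against 31.0% of 5985 genes. Where none did, 2 of 18 members were bound (11.1%, interval 3.10 to 32.8%), against 9.52% of 7960 genes. Those 2 were CycE and E2f1, each with its summit upstream of an internal TSS. Neither was bound when only the most upstream TSS of each gene was used. Among isolated genes the members' share was thus close to that of all genes. The part of gene crowding in the overall share was not tested.

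Apart from AACAAT, each word searched in the 201 bp windows was in 0 or 1 of the members' 16 promoter windows. A single match is 6.25% of them, so such counts say little beside small shares. Only exact matches were counted. The replication element DRE (TATCGATA), known in flies for promoters of replication genes, was in 0 of the 16 promoter windows of members, against 6.62% of all promoter IDR windows. E2F sites (TTTCCCGC, TTTGGCGC, TTTCGCGC or TTTGCCGC) were in 1 of 16 (6.25%), against 2.60%. That match was in the Cdc7 window, where TTTCCCGC runs from 4 bp upstream of the TSS to 3 bp past it. The HMG-box core AACAAT was in 3 of 16 (18.8%), against 25.3%, and 2 of these, at Mcm2 and E2f1, are seen above as ATTGTT on the plus strand. Each word was searched on both strands.

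Among promoter words of other factors, GAGAG was in 1 of 16 (6.25%) against 19.1%, and the core GGTCACA of core promoter motif 1 in 1 of 16 against 5.10%, both at chif. The E-box words CACGTG and CAGGTG were in 0 of 16, against 1.81% and 4.90%. Around the start sites of all protein-coding genes, windows of the same length held DRE in 7.84% and E2F words in 4.50%. No 2 of these words overlap at the members' promoter peaks. In the 11 distal windows of members GAGAG was in 3 (27.3%), against 22.8% of all distal IDR windows, AACAAT in 2 (18.2%), against 25.6%, and GGTCACA in 1 (9.09%), against 1.44%. The DRE, E2F and E-box words were in 0 of the 11, against 0.248% for DRE, 2.77% for E2F words, 1.83% for CACGTG and 4.46% for CAGGTG.

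Base composition was alike at the members' sites and at other peaks. The median G+C content was 32.6% in the 16 promoter windows of members and 33.3% in all promoter IDR windows. It was 41.3% around the start sites of all protein-coding genes. Those windows were centred on the most upstream TSS of each gene and the peak windows on summits. The part of position in this difference was not tested. The lowest was that of CycE, at 17.4%, and the highest that of the Dp peak at 278 bp upstream, at 46.8%. In the 11 distal windows of members the median was 33.8%, against 34.3% in all distal IDR windows. Of these 11 distal peaks, 9 lay in introns of the member and 0 within 500 bp of the TSS of another gene.

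Outside the 40 genes, a wider list of 130 genes of the same processes had promoter peaks at 36 (27.7%, interval 20.7 to 35.9%), against 18.7% of all protein-coding genes. Among these bound genes, all but Top1, grp, p53, cnn and asl had another gene's TSS within 500 bp of the summit. Bub3 and Cap-D2 share a peak, as do barr and lok, and each gene was counted. The part of gene crowding in this share was not tested. By group the counts were 7 of 11 for the damage and replication checkpoint and 4 of 7 for centrosome duplication. The counts were 7 of 16 for spindle checkpoint, chromosomal passenger and other mitotic genes, and 8 of 24 for the replication fork. They were 1 of 4 for origin recognition and loading, 4 of 17 for cohesin, condensin and separase, 4 of 18 for the SCF and APC/C ubiquitin ligases and 1 of 9 for the kinetochore. No promoter peak was found at the 7 genes of the CMG helicase and firing, the 12 partners and regulators of cyclin-dependent kinases, or the 5 of the dREAM complex. With so few genes a count of 0 says little: the intervals end at 35.4% for the CMG genes, 24.2% for the kinase partners and 43.4% for dREAM, all above the share of all genes. The intervals of the fork, loading, cohesin, ligase and kinetochore groups also span that share.

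The highest bound genes differed widely in signal between these groups. Except for cnn and asl, each gene listed below had another gene's TSS within 500 bp of the summit. Such neighbours include CG13933 for PolD2, TH1 for mei-41, Hsc70-4 for tefu, Cdk12 for SAK, Rack1 for mts and Ercc1 for SMC2. These peaks cannot be assigned to either gene. At the fork they were PolD2, a subunit of DNA polymerase delta (pooled signal 427, rank 319), and RPA1, which shares the Mcm2 peak. In the checkpoint they were mei-41, the fly ATR kinase (285, rank 761), and tefu, the fly ATM kinase (227, rank 1173). In centrosome duplication they were cnn (359, rank 490) and asl (150, rank 2422), both centrosome scaffold proteins. The spindle group was led by SAK (396, rank 384), which starts centriole duplication, and mts (270, rank 846), the catalytic subunit of phosphatase PP2A. Neither of these is a spindle checkpoint or passenger protein, nor are gwl and endos, which are also counted there. The other bound genes of that group were Bub3, Incenp and Det.

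Among the ligases the highest were CG8188, listed as Ube2S (220, rank 1247), and Cdc16, an APC/C subunit (206, rank 1403). For chromosome structure they were the condensin subunits SMC2 (223, rank 1217) and barr (179, rank 1817), and barr shares its peak with the checkpoint kinase gene lok. Mcm10, a loading and elongation factor, had a peak of 129 (rank 3021), and Mis12, a kinetochore subunit, of 131 (rank 2961). Mcm10 was in the top regions of replicate 1 alone (ranks 1920, 4698 and 8781), and Mis12 in those of replicates 1 and 2 (ranks 2772, 2825 and 8695).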

How the data were processed

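ChIP-seq of CG12104-GFP whole embryos was done in 3 biological replicates, with chromatin sonicated to 200 to 800 bp per the labels. The authors deposited peak lists. Regions were called for each replicate and for the pooled replicates against 1 control alignment, per the deposited text lists, from which the IDR set also comes. Aligner and peak caller: not given in the sources used here. The signal of each region, computed by the authors, has a scale particular to each list and served to rank regions within it. The -log10 of each region's q value was deposited by the authors and is printed as q. Depth is unknown. Wilson intervals (95%) cover counting error only.

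Summits in dm6 were assigned to protein-coding genes of Ensembl release 115 with Python 3.11.15, numpy 2.4.6 and scipy 1.17.1, and figures were drawn with matplotlib 3.10.9. Sequence came from the NCBI Release 6 assembly. Replicate support is the highest region that overlaps an IDR peak by at least 1 bp; 1 region may support neighbouring peaks. Gene assignment was tested on simulated data, and it placed 200 of 200 peaks. The members and lists were chosen with earlier results of these data known, so no test was made on them. Every member is named; in each wider group the 2 bound genes of highest signal are, with neighbours that share a member's peak. Among the wider genes, 1 symbol was not matched and was left out. The dm3 lists were not used here. Alternatives tried were other windows, other gene rules, other cuts of the lists and leaving out each replicate.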

Additional observations from a re-analysis of the deposited data

How the results depend on the processing

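The count of members with a promoter peak was 13. It was 8 with a 200 bp window, 7 in the highest 2030 IDR peaks, 28 with all regions of the pooled list, and 2 among the 18 members with no other TSS within 1 kb. With the most upstream TSS of each gene alone it was 10 (25.0%, against 16.7% of all genes), as CycE, E2f1 and Dp left. Keeping only IDR peaks with a top region in both of the other replicates gave 8 to 11 without a replicate. In each of the 14 alternatives the members' share was above that of all genes, though at 11.1% against 9.52% where no other TSS lay within 1 kb. The alternatives draw on the same lists and the same members, so they are not independent of each other. Distal peaks were found at 5 to 6 members without a replicate, and E2f1 left this count without replicate 2. The count stayed within 1.5 times of 6 in all 7 alternatives, and was lowest, at 4, in the highest 2030 IDR peaks. Any IDR peak was found at 9 members in the highest 2030 peaks and at 11 to 14 without a replicate. The median percentile of members' promoter peaks by signal was 39.9. It was 51.5 in replicate 1, 50.3 in replicate 2 and 25.6 with a 200 bp window, 51.9 in replicate 2 for regions that overlap at least 50% of the peak, and 31.4 to 48.2 without a replicate. The share of upstream summits was 75.0%. It was 87.5% in replicates 1 and 3, 66.7% with a 200 bp window, 87.5% in replicate 1 with the overlap of 50%, and 69.2 to 70% without a replicate. A smaller window or set holds fewer peaks, but the cause of these moves was not tested. Without replicate 1, dup, Mcm5, E2f1, E2f2 and aurA left the promoter count, without replicate 2 dup, Mcm5, E2f2 and aurA, and without replicate 3 Mcm5 and E2f1. No paired analysis was possible because the series has 1 group.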
